A study of Danio rerio with 13 samples.

Results

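Troponin, tropomyosin and the myosin light chains are small proteins that control or carry the force of the sarcomere, the contractile unit of striated muscle, and they are described here in zebrafish (Danio rerio) muscle. The genes were chosen by symbol: every identifier of the count table whose symbol was that of a troponin C, I or T, a tropomyosin or a numbered myosin light chain was taken, except tnni3k, a kinase, and tpmt.1 and tpmt.2, methyltransferases that only share the letters. The rule gave 46 of 32105 identifiers, which were 4 of troponin C, 13 of troponin I, 8 of troponin T, 6 of tropomyosin and 15 of the light chains. By what vertebrate genes of the same symbol are known for, 16 were classed as fast muscle, 9 as slow muscle, 11 as cardiac and 7 as smooth muscle or non-muscle genes, and tnni4a, tnni4b.1 and tnni4b.2 were left unassigned. Symbols were written as the name table gives them, and 20 of the members shared a symbol with another member, so that these are also named by their identifier.

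RNA was sequenced from muscle of male AB zebrafish at 3 months of age. The groups were 5 wild types, 5 fish with 1 mutant copy of tert (tert+/-) and 3 with 2 mutant copies (tert-/-). Tert is the protein part of telomerase, the enzyme that extends chromosome ends, and the mutant allele hu3430 carries a nonsense mutation, so that its RNA can still be made. The strain, sex and age were the same in all groups. Each library is named by its genotype and a number in the order of the records, and how the fish were related was not stated.

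In the sarcomere, myosin heads of the thick filament pull on actin of the thin filament. At rest tropomyosin, a coiled coil that lies along actin, covers the sites that myosin binds. Troponin C binds calcium, troponin I inhibits and troponin T fixes the complex to tropomyosin, so that calcium release moves tropomyosin aside and lets myosin bind. Each myosin head carries an essential and a regulatory light chain. Fast and slow fibres use different paralogs of most of these proteins, and in zebrafish the slow fibres form a thin superficial layer of the trunk while fast fibres make up the bulk. Smooth muscle and other cells use a regulatory light chain whose phosphorylation switches the motor on.

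The libraries held 10585558 to 47492321 counts. Fast muscle markers dominated all of them, with actc1b, a striated muscle actin, at 52569 to 107076 CPM, the count of a gene scaled to the same total in every library. Wild type 5, tert+/- 1 and tert-/- 1 also held testis transcripts, with 8 summed markers of testis at 409.8 to 2038 CPM against 0.973 to 23.4 CPM in the other 10 libraries. These libraries stand apart in what follows, and the counts, list medians and ratios that compare genotypes are also given without them. Tert was counted in all libraries. Its level was 4.30 to 7.80 CPM in wild types, 5.24 to 15.8 CPM in tert+/- and 3.25 to 4.63 CPM in tert-/-. The value of 15.8 CPM was that of tert+/- 1, with testis transcripts, and the other tert+/- libraries lay at 5.24 to 5.71 CPM. This does not check the labels, since RNA of a nonsense allele can still be made. Since these are pieces of whole muscle, fewer fibres of a type and less RNA per fibre cannot be told apart.

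Together the 46 members made up 10.8 to 16.7% of all counts of a library. The fast genes made up nearly all of this, with 10.6 to 16.6% of all counts, while the slow genes held 0.0537 to 0.243%, the cardiac genes 0.0111 to 0.0667% and the smooth muscle and non-muscle genes 0.0184 to 0.0369%. The cardiac class goes by symbol only and was led by TNNC1, tnnt2e and tnnt2d, so that its share is no measure of heart transcripts. Of the 10 libraries without testis transcripts, the lowest fast share was 13.3% and the highest 16.6%. The lowest fast shares of all lay in tert+/- 1 with 10.6% and tert-/- 1 with 11.1%, both with testis transcripts, whereas wild type 5 stood at 13.7%. For abundant members such as MYL11 counting error was small beside the differences between fish. This does not hold for members with few counts, such as tnnc1a with 29 counts over all libraries. In the smallest library, wild type 5, the 95% Wilson interval of the MYL11 share of 5.15% ran from 5.14 to 5.17%, and a gene with 0 counts there could still hold 0.283 CPM, from 3 counts. Such intervals and limits cover counting error only.

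Levels can be compared between genes only per length, here as CPM per kilobase with lengths taken from the deposited tables. On this scale MYL11 (ENSDARG00000053254), the fast regulatory light chain, was the highest member with 31949 ± 4205 CPM per kilobase (SD, n = 13). It exceeded tpma, the next, in 13 of 13 libraries. The fast tropomyosin tpma followed with 18243 ± 2930 and exceeded MYL1 (ENSDARG00000017441), a fast essential light chain at 15611 ± 3688, in 11 of 13. After these came TNNT3 (ENSDARG00000068457), fast troponin T, with 8339 ± 1401 and TNNC2, fast troponin C, with 7457 ± 1478, whose order held in 13 of 13 libraries. The 2 most abundant TNNI2 identifiers, fast troponin I, had 5020 ± 917 (ENSDARG00000013752) and 4171 ± 1252 (ENSDARG00000029995), and as the first exceeded the second in only 9 of 13 libraries, their order is not firm. The highest slow member, myl13, a light chain of slow fibres, had 291 ± 198, and its order with the fast tropomyosin tpm1, which averaged 392 ± 234, held in 8 of 13 libraries only.

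**Figure D1:**
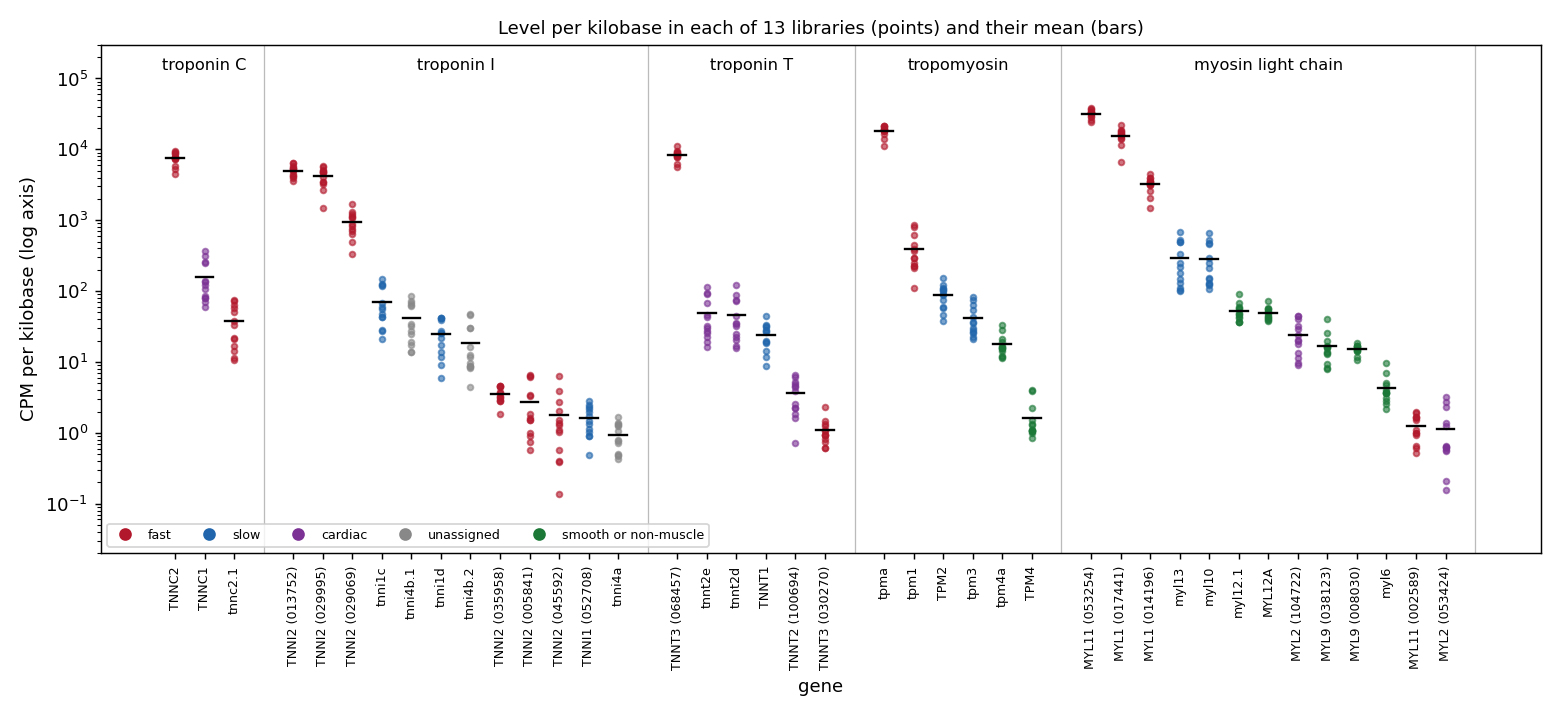
Levels of the 40 members with a mean of at least 1 CPM, in CPM per kilobase on a log axis, with 1 point per library above 0 (n = 13), a bar at the mean and colours for the classes. In each of the 5 families the highest fast gene lies above the highest slow or cardiac gene in every library, and MYL11 is the highest member with a mean of 31949.

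Summed over all members of a family and per kilobase, the troponin subunits were close to each other within a library. In the 10 libraries without testis transcripts the ratio of troponin T to troponin C was 1.04 ± 0.0405 and that of troponin I to troponin C was 1.26 ± 0.0579 (SD, n = 10). Tropomyosin summed to 2.27 ± 0.122 times troponin T in the same libraries. The 2 MYL1 identifiers together had 0.620 ± 0.0527 of the MYL11 level there. The largest departure was wild type 5, with troponin T at 2.47 and troponin I at 2.74 times troponin C, against at most 1.12 and 1.48 in the other 12 libraries. Its ratio of MYL1 (ENSDARG00000017441) to MYL11 was 0.197, against 0.432 to 0.657 in the others.

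Troponin C, the calcium sensor, was almost wholly TNNC2. TNNC2 held 1.21, 1.13, 1.2, 1.34 and 0.681% in wild types 1 to 5, 0.814, 1.17, 1.32, 1.12 and 1.44% in tert+/- 1 to 5 and 0.885, 1.16 and 1.39% in tert-/- 1 to 3. The wild type and tert-/- ranges overlapped, and the 3 libraries with testis transcripts were the lowest of their groups. Its log2 fold change was -0.16 (SE 0.60, unadjusted p = 0.79) in tert-/- against wild type and -0.04 (SE 0.52, unadjusted p = 0.937) in tert+/- against wild type by edgeR. A second fast identifier, tnnc2.1, was at 6.2, 42.8, 37.3, 42.3 and 8.41 CPM in wild types 1 to 5, 6.5, 19, 9.73, 22.2 and 12.1 CPM in tert+/- 1 to 5 and 29, 33.8 and 12.7 CPM in tert-/- 1 to 3. It was at least 37.3 CPM in wild types 2 to 4 and at most 8.41 CPM in wild types 1 and 5. TNNC1, the troponin C of slow and cardiac muscle in mammals, which was classed as cardiac by its symbol, was at 60.7, 223, 123, 74 and 108 CPM in wild types 1 to 5, 70.5, 274, 119, 216 and 52.5 CPM in tert+/- 1 to 5 and 69.4, 321 and 94.9 CPM in tert-/- 1 to 3. It spanned 6.12-fold between fish, and wild type 2, tert+/- 2, tert+/- 4 and tert-/- 2 held the 4 highest values. The cardiac tnnc1a had no count in 8 libraries and reached 0.756 CPM in wild type 5.

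Troponin I, the inhibitory subunit, came mainly from 3 of 6 identifiers of TNNI2. TNNI2 ENSDARG00000013752 held 0.892, 0.676, 0.609, 0.641 and 0.97% in wild types 1 to 5, 0.768, 0.827, 0.991, 0.751 and 0.826% in tert+/- 1 to 5 and 0.54, 0.635 and 0.805% in tert-/- 1 to 3. TNNI2 ENSDARG00000029995 held 0.332, 0.333, 0.486, 0.557 and 0.47% in wild types 1 to 5, 0.139, 0.251, 0.311, 0.452 and 0.532% in tert+/- 1 to 5 and 0.437, 0.386 and 0.46% in tert-/- 1 to 3. The 2 differed in which libraries were high: the ratio of the second to the first per kilobase was 0.291 in tert+/- 1 and 0.487 in tert+/- 2 at the low end and 1.39 in wild type 4 at the high end. Per kilobase the first made up 49.3% of all troponin I on average (38.6 to 72.4%) and the second 40.1% (21.0 to 53.8%). The third, TNNI2 ENSDARG00000029069, was at 494, 809, 679, 570.4 and 849.8 CPM in wild types 1 to 5, 257, 1285, 933, 627 and 539 CPM in tert+/- 1 to 5 and 372, 997 and 868 CPM in tert-/- 1 to 3. It supplied 4.83 to 16.7% of troponin I per kilobase and was highest in tert+/- 2.

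The other 3 TNNI2 identifiers had less than 0.1% of troponin I each. TNNI2 ENSDARG00000005841 was at 2.1, 23.5, 22.7, 24.2 and 5.67 CPM in wild types 1 to 5, 2.75, 6.75, 3.65, 5.6 and 5.97 CPM in tert+/- 1 to 5 and 12, 12.7 and 3.31 CPM in tert-/- 1 to 3. Wild types 2 to 4 were thus within 1.07-fold of each other and 4.0-fold or more above wild types 1 and 5, while all 5 tert+/- libraries lay at 6.75 CPM or less. TNNI2 ENSDARG00000045592 was at 0.913, 1.24, 5.27, 1.7 and 0.472 CPM in wild types 1 to 5, 3.22, 1.15, 0.325, 0.337 and 1.09 CPM in tert+/- 1 to 5 and 0.858, 2.29 and 0.113 CPM in tert-/- 1 to 3. TNNI2 ENSDARG00000035958 was at 4.07, 4.11, 5.56, 6.59 and 4.82 CPM in wild types 1 to 5, 5.29, 6.75, 2.68, 4.25 and 4.63 CPM in tert+/- 1 to 5 and 4.5, 6.79 and 6.46 CPM in tert-/- 1 to 3. The former was highest in wild type 3, and the latter varied by no more than 2.54-fold over all libraries.

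Of the slow troponin I genes tnni1c was the most abundant, at 32.8, 89.7, 42.3, 16.1 and 36.5 CPM in wild types 1 to 5, 33, 93.8, 52, 95 and 20.6 CPM in tert+/- 1 to 5 and 21.8, 113 and 45.5 CPM in tert-/- 1 to 3. Its highest values lay in tert-/- 2, tert+/- 4, tert+/- 2 and wild type 2, that is, in every genotype. The slow gene tnni1d ranged from 10.3 to 71.4 CPM and TNNI1 ENSDARG00000052708 from 1.33 to 7.71 CPM, while TNNI1 ENSDARG00000000474 stayed at or below 0.384 CPM. The unassigned tnni4b.1 was at 13, 62.6, 31.8, 13.1 and 23.3 CPM in wild types 1 to 5, 25.3, 67.6, 59, 58.3 and 17.8 CPM in tert+/- 1 to 5 and 16.4, 80.0 and 30.3 CPM in tert-/- 1 to 3. Its neighbour in name, tnni4b.2, was at 10.8, 38.8, 21.2, 10.5 and 12.7 CPM in wild types 1 to 5, 15.1, 60.9, 11.2, 39.3 and 5.69 CPM in tert+/- 1 to 5 and 11.2, 60.3 and 16.4 CPM in tert-/- 1 to 3. Both were high in the same fish as tnni1c, except that tert+/- 3 was high for tnni4b.1 only. The third, tnni4a, was at 1.13, 3.84, 2.89, 3.02 and 1.79 CPM in wild types 1 to 5, 1.68, 3.1, 1.16, 1.83 and 0.981 CPM in tert+/- 1 to 5 and 2.44, 3.16 and 1.09 CPM in tert-/- 1 to 3, with its highest value in wild type 2.

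Troponin T, which ties the complex to tropomyosin, was 98.5% TNNT3 ENSDARG00000068457 per kilobase on average. This gene held 1.6, 1.53, 1.69, 1.73 and 2.22% in wild types 1 to 5, 1.1, 1.66, 1.76, 1.64 and 1.86% in tert+/- 1 to 5 and 1.23, 1.56 and 1.81% in tert-/- 1 to 3. Wild type 5 was the highest and tert+/- 1 the lowest of all libraries, and all others lay between 1.23 and 1.86%. The other TNNT3 identifier, ENSDARG00000030270, was at 1.33, 1.54, 1.49, 1.17 and 3.31 CPM in wild types 1 to 5, 0.871, 1.89, 1.05, 0.863 and 1.33 CPM in tert+/- 1 to 5 and 1.78, 1.33 and 2.09 CPM in tert-/- 1 to 3, and wild type 5 was again the highest. TNNT1, slow troponin T, was at 9.38, 33.4, 35.1, 34.8 and 19.6 CPM in wild types 1 to 5, 20.6, 28.7, 21.1, 30.0 and 12.7 CPM in tert+/- 1 to 5 and 29, 47.4 and 15.2 CPM in tert-/- 1 to 3. Its levels in wild types 2 to 4 were within 1.05-fold of each other, and tert-/- 2 was the highest. The tnnt2 genes, which carry the symbol of cardiac troponin T, were led by tnnt2e with 28.5 to 202 CPM and tnnt2d, which was at 24.2, 86.6, 31.6, 15.5 and 21.9 CPM in wild types 1 to 5, 34.1, 43.7, 70.0, 72.6 and 16.2 CPM in tert+/- 1 to 5 and 19.5, 117 and 33.4 CPM in tert-/- 1 to 3. Both had their highest value in tert-/- 2 and their next highest in wild type 2. TNNT2 ENSDARG00000100694 ranged from 0.850 to 7.59 CPM, while TNNT2 ENSDARG00000020610 and tnnt2c stayed at or below 1.23 and 0.469 CPM.

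Tropomyosin was 97.0% tpma per kilobase on average. The gene tpma held 2.59, 2.62, 2.56, 2.74 and 2.98% in wild types 1 to 5, 1.55, 2.65, 2.6, 2.31 and 2.95% in tert+/- 1 to 5 and 1.93, 2.56 and 2.95% in tert-/- 1 to 3. Apart from tert+/- 1 and tert-/- 1 it varied by 1.29-fold only. The second fast tropomyosin, tpm1, was at 588, 968, 2137, 2273 and 561 CPM in wild types 1 to 5, 656, 589, 288, 1194 and 1027 CPM in tert+/- 1 to 5 and 1611, 777 and 766 CPM in tert-/- 1 to 3. It was 7.90 times higher in wild type 4 than in tert+/- 3, and its wild types alone spanned 4.05-fold. As a share of the tpma level per kilobase it ran from 0.583% in tert+/- 3 to 4.40% in wild type 3 and tert-/- 1, and wild type 4 was at 4.37%.

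The slow tropomyosin TPM2 was at 177, 566, 493, 496 and 427 CPM in wild types 1 to 5, 349, 472, 278, 520.3 and 217 CPM in tert+/- 1 to 5 and 416, 719 and 273 CPM in tert-/- 1 to 3. The slow tpm3 was at 103, 289, 196, 118 and 118 CPM in wild types 1 to 5, 160.1, 375, 168, 241 and 96.8 CPM in tert+/- 1 to 5 and 138, 342 and 129 CPM in tert-/- 1 to 3. Tert-/- 2 was the highest library for TPM2 and tert+/- 2 for tpm3, with wild type 1 and tert+/- 5 the lowest of both. The tropomyosin tpm4a was classed as smooth muscle or non-muscle by its symbol only. It was at 46.8, 28, 29.8, 29.2 and 37.5 CPM in wild types 1 to 5, 82.6, 69.7, 38.9, 52.4 and 39 CPM in tert+/- 1 to 5 and 40.4, 41.9 and 34.6 CPM in tert-/- 1 to 3. TPM4 (ENSDARG00000019128), from another gene of that name, was at 3.4, 3.52, 3.27, 2.72 and 7.18 CPM in wild types 1 to 5, 13.1, 4.31, 3.4, 3.62 and 4.25 CPM in tert+/- 1 to 5 and 12.5, 4.96 and 3.4 CPM in tert-/- 1 to 3. Both were highest in tert+/- 1, and for TPM4 tert+/- 1 and tert-/- 1 stood at 13.1 and 12.5 CPM, against 7.18 CPM or less in the others. Both are libraries with testis transcripts, and the part of other tissue in these values was not tested.

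Among the light chains MYL11 ENSDARG00000053254, the fast regulatory chain, held 5.54, 4.94, 4.79, 5.13 and 5.15% in wild types 1 to 5, 3.67, 4.36, 4.91, 4.96 and 5.65% in tert+/- 1 to 5 and 4.01, 4.45 and 5.94% in tert-/- 1 to 3. Tert+/- 1 and tert-/- 1 were the lowest and tert-/- 3 the highest. MYL1 ENSDARG00000017441 held 3.12, 2.05, 2.21, 2.44 and 0.95% in wild types 1 to 5, 2.26, 2.35, 2.52, 2.29 and 2.64% in tert+/- 1 to 5 and 1.62, 2.0 and 2.6% in tert-/- 1 to 3. MYL1 ENSDARG00000014196 held 0.35, 0.37, 0.352, 0.386 and 0.166% in wild types 1 to 5, 0.23, 0.431, 0.398, 0.396 and 0.492% in tert+/- 1 to 5 and 0.288, 0.358 and 0.439% in tert-/- 1 to 3. Wild type 5 was the lowest of all 13 libraries for both MYL1 identifiers and for TNNC2, while it was the highest for both TNNT3 identifiers and for tpma. The other MYL11 identifier, ENSDARG00000002589, stayed at or below 1.65 CPM.

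The slow regulatory light chain myl10 was at 92, 344, 185, 96 and 113 CPM in wild types 1 to 5, 112, 386, 216, 359 and 80.9 CPM in tert+/- 1 to 5 and 94.7, 498 and 158 CPM in tert-/- 1 to 3. The slow light chain myl13 was at 93.9, 457, 228, 119 and 165 CPM in wild types 1 to 5, 103, 486, 308, 462 and 96.4 CPM in tert+/- 1 to 5 and 136, 636 and 201 CPM in tert-/- 1 to 3. Both were highest in tert-/- 2, followed by tert+/- 2, tert+/- 4 and wild type 2, and the highest and lowest library differed by 6.15-fold for myl10 and 6.78-fold for myl13. MYL2 ENSDARG00000104722, which carries the symbol of the cardiac and slow regulatory chain of mammals, was at 7.28, 30.2, 34.2, 33.6 and 6.8 CPM in wild types 1 to 5, 13.5, 24.6, 10.1, 18.2 and 8.72 CPM in tert+/- 1 to 5 and 22.1, 15.3 and 14.8 CPM in tert-/- 1 to 3. It was highest in wild types 2 to 4 and lowest in wild types 1 and 5. MYL2 ENSDARG00000053424 ranged from 0.283 to 5.93 CPM and myl4, an atrial chain in mammals, from 0.217 to 1.81 CPM.

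MYL7, a light chain of the heart, was at 0, 0.0271, 0.0573, 0.0486 and 5.86 CPM in wild types 1 to 5, 0.201, 0, 0, 0.337 and 0 CPM in tert+/- 1 to 5 and 0.583, 2.19 and 0 CPM in tert-/- 1 to 3. In wild type 5 the 62 counts gave a 95% Wilson interval of 4.57 to 7.51 CPM, and 5 libraries had no count, which allows up to 0.0680 to 0.108 CPM there. Of the other heart markers, nppa and nppb were at or below 0.206 CPM in every library, hand2 at or below 0.360 CPM and myh6 ENSDARG00000090637, a heart myosin heavy chain, at or below 0.661 CPM, while myh6 ENSDARG00000079564 was at 3.73 to 14.8 CPM. The latter was highest in wild type 4 and at 4.72 CPM in wild type 5, so that it did not follow MYL7. Myh6 ENSDARG00000090637 was highest where MYL7 was, at 0.661 CPM in wild type 5, 0.503 CPM in tert-/- 2 and 0.378 CPM in tert-/- 1. Of the rest, nppa was highest in tert-/- 2, nppb in tert+/- 1 and hand2 in wild type 1. All 6 identifiers of the heart list, MYL7 included, summed to 4.18 to 15.2 CPM. Where the MYL7 counts came from was not tested.

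The smooth muscle and non-muscle light chains were low, and their highest and lowest libraries differed by 1.76-fold for MYL9 ENSDARG00000008030 and up to 5.13-fold for MYL9 ENSDARG00000038123. The regulatory chain myl12.1 was at 69.8, 53.4, 67.1, 54.1 and 54.1 CPM in wild types 1 to 5, 134, 87.4, 85.3, 80.3 and 71.4 CPM in tert+/- 1 to 5 and 99.8, 62.3 and 61.1 CPM in tert-/- 1 to 3. In plain CPM, without normalisation factors, all 5 tert+/- libraries were above all 5 wild types for this gene. The essential chain myl6 was at 13.3, 7.98, 10.2, 6.25 and 10.6 CPM in wild types 1 to 5, 27.1, 14.3, 8.9, 11.6 and 10.2 CPM in tert+/- 1 to 5 and 19.6, 10.3 and 7.34 CPM in tert-/- 1 to 3. MYL9 ENSDARG00000008030 was at 29.2, 42.6, 46.3, 51.3 and 32.5 CPM in wild types 1 to 5, 41.7, 39.9, 39.4, 44.6 and 45.8 CPM in tert+/- 1 to 5 and 45.6, 41.4 and 38.8 CPM in tert-/- 1 to 3. The former was highest in tert+/- 1 and tert-/- 1, and the latter in wild type 4. MYL12A ranged from 33.6 to 64.0 CPM and MYL9 ENSDARG00000038123 from 6.30 to 32.3 CPM, the latter with its highest value in tert-/- 1. The smooth muscle actin acta2 was also highest in that library, at 293 CPM against at most 101 CPM in the others, and its part in the light chain values was not tested.

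Across libraries the fast genes were the most even of the striated muscle classes. For the 10 fast genes with a mean of at least 100 CPM the coefficient of variation (CV, the SD over the mean) had a median of 21.7% over all 13 libraries and 12.5% over the 10 without testis transcripts. The 4 slow genes at that level had medians of 57.6 and 54.9%. All 547 genes of the table at that level had medians of 26.8 and 19.6%. Within the fast set the range was wide, since tpm1 and TNNI2 ENSDARG00000029069 varied more than the others. Leaving out the 3 libraries thus lowered the median spread of the fast genes from 21.7 to 12.5% and left that of the slow genes nearly as it was.

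**Figure D2:**
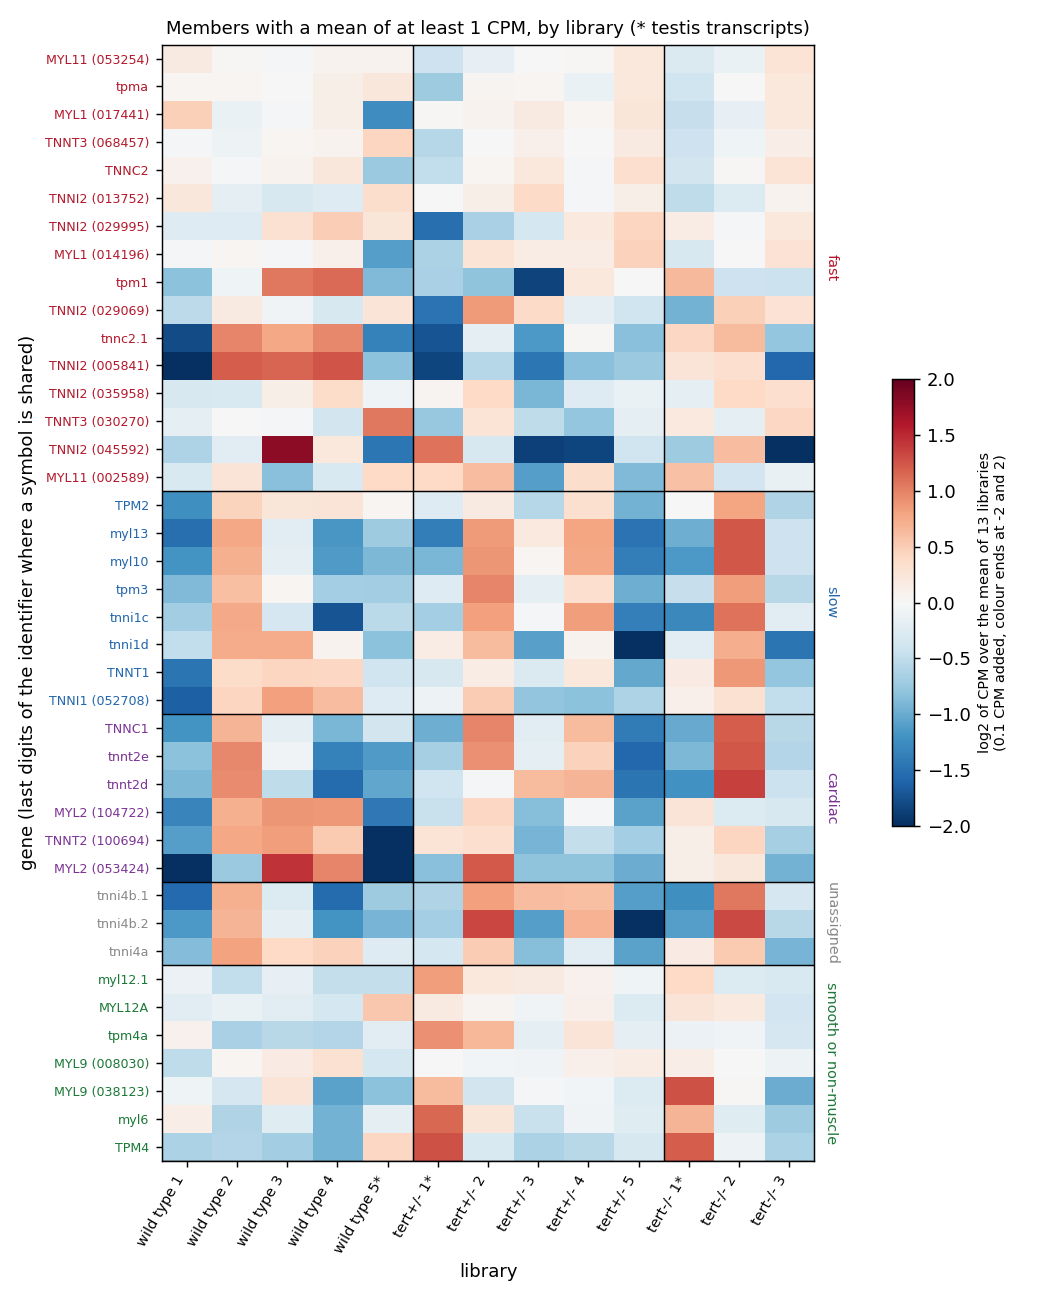
Log2 of the CPM of each of 40 members over its own mean of 13 libraries, after adding 0.1 CPM, with libraries in columns by genotype and members in rows by class. Colours end at -2 and 2. The slow genes tnni1c, tpm3, myl10 and myl13 and TNNC1, tnnt2e and tnni4b.2 are highest in wild type 2, tert+/- 2, tert+/- 4 and tert-/- 2, and tnnc2.1, TNNI2 ENSDARG00000005841, MYL2 ENSDARG00000104722 and TNNT2 ENSDARG00000100694 are highest in wild types 2 to 4.

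Patterns over libraries crossed the genotypes. In 7 of the 44 members tested the 4 highest libraries were wild type 2, tert+/- 2, tert+/- 4 and tert-/- 2. These were tnni1c, tpm3, myl10 and myl13 of the slow class, TNNC1 and tnnt2e, which were classed as cardiac by symbol only, and tnni4b.2. Of the 8 slow members tested 4 had this order, while TNNT1, TPM2, tnni1d and TNNI1 ENSDARG00000052708 did not. None of the 16 fast members had it. Of all 19407 genes tested, 85 (0.438%) had it. In 4 members, tnnc2.1, TNNI2 ENSDARG00000005841, TNNT2 ENSDARG00000100694 and MYL2 ENSDARG00000104722, the 3 highest libraries were wild types 2 to 4, as in 111 (0.572%) of all genes. These libraries were picked from the values of the members, so that the counts describe the table and are no test. The slow myosin heavy chains smyhc1 and smyhc2, which are not members, also had their 4 highest libraries in wild type 2, tert+/- 2, tert+/- 4 and tert-/- 2, with 77.4 to 147 CPM and 121 to 172 CPM there, against at most 73.8 and 74.1 CPM in the others. The slow heavy chain myh7ba did not, as its highest values were 123 CPM in tert+/- 1 and then 102 CPM for wild type 1.

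Slow and fast paralogs were set against each other within each library, per kilobase, which does not depend on the scaling of libraries. The slow troponin I genes had 0.872 ± 0.553% of the level of the fast ones in wild types (SD, n = 5), 1.04 ± 0.553% in tert+/- (n = 5) and 1.07 ± 0.803% in tert-/- (n = 3). TNNT1 stood at 0.287 ± 0.140, 0.270 ± 0.0949 and 0.384 ± 0.209% of the fast troponin T genes in the same order. The slow tropomyosins stood at 0.647 ± 0.241, 0.740 ± 0.307 and 0.816 ± 0.411% of the fast ones. The differences between genotype means were smaller than the SD within every genotype, with an exception for TNNT1. Its tert-/- mean differed from those of wild types and of tert+/- by more than the SD of tert+/-.

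The slow light chains stood at 0.908 ± 0.614% of the fast ones in wild types, 1.23 ± 0.773% in tert+/- and 1.44 ± 1.29% in tert-/-. The 3 values of tert-/- were 0.683, 2.93 and 0.704%, so that tert-/- 2 alone set the higher mean. No troponin C identifier was classed as slow, and TNNC1 with tnnc1a stood at 1.97 ± 1.12, 2.24 ± 1.43 and 2.46 ± 2.05% of the fast troponin C genes. The means rank by the number of mutant copies in all families but troponin T. Without tert-/- 2 the tert-/- mean was 0.609% for troponin I, 1.28% for troponin C, 0.613% for tropomyosin and 0.693% for the light chains. Each was below the mean of all 5 wild types, and that of troponin T was 0.295%. Wild type 2, the highest wild type in these 4 families, stayed in the comparison, at 0.961% for tropomyosin and 1.91% for the light chains. Means with both fish left out were not computed, so that this order is not firm. Without the 3 libraries with testis transcripts the means of wild types, tert+/- and tert-/- (n = 4, 4 and 2) were 0.964, 1.03 and 1.31% for troponin I, 0.318, 0.251 and 0.359% for troponin T and 0.674, 0.685 and 0.813% for tropomyosin. They were 0.938, 1.39 and 1.82% for the light chains and 1.76, 2.42 and 3.01% for troponin C, where 1 of the 2 tert-/- libraries is tert-/- 2. Within wild types, however, the ratio ran from 0.368 to 1.91% for the light chains and within tert+/- from 0.356 to 2.14%, which covers all but 1 of the tert-/- values. No test was made of these ratios.

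**Figure D3:**
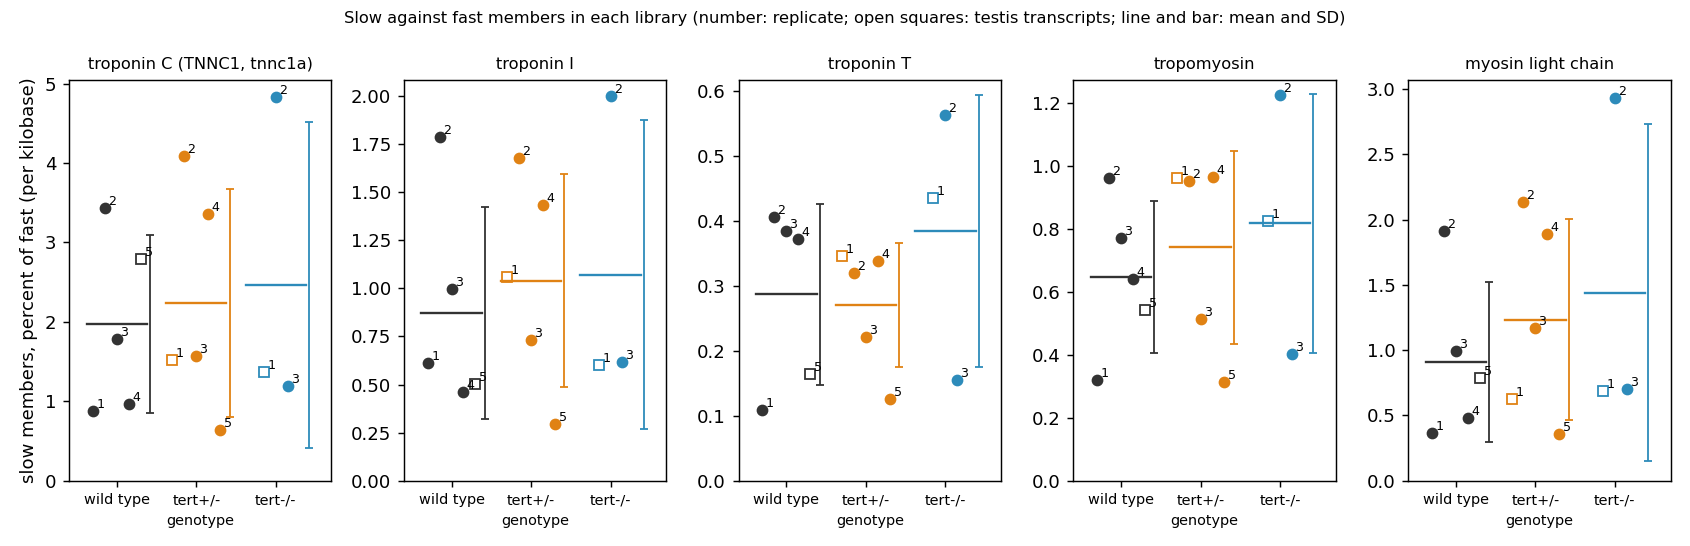
Slow members as percent of fast members, summed per kilobase within each library, for the 5 families. Troponin C has no member classed as slow, and its panel shows TNNC1 with tnnc1a, both classed as cardiac. Points are libraries with their replicate number, open squares the 3 with testis transcripts, lines the mean and bars the SD per genotype (n = 5, 5 and 3). In troponin I, troponin C and the light chains wild type 2, tert+/- 2, tert+/- 4 and tert-/- 2 are the highest of their genotypes, and the genotypes overlap in every family.

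Each genotype was compared with the others in 1 fit of all 19407 genes that passed the filter on low counts, which kept 44 of the 46 members and dropped tnnc1a and TNNI1 ENSDARG00000000474. A gene that passes only through the group where it is high had to differ, and no count over the members that passed is taken as support. At an adjusted p under 0.05 edgeR's quasi-likelihood test called 0 of the 44 members in tert-/- against wild type, in tert+/- against wild type and in tert-/- against tert+/-, where it called 0% of all genes as well. At an unadjusted p under 0.05 it listed 0, 1 and 0 members and 496, 557 and 284 of all genes (2.56, 2.87 and 1.46%). DESeq2 and limma-voom with quality weights called no member either. At an unadjusted p under 0.05 DESeq2 listed 0, 1 and 0 members. Over all genes it listed 742 of 25326 in tert-/- against wild type and 468 genes in tert-/- against tert+/-. Its count over all genes in tert+/- against wild type is not given here, so that the 1 member has no share beside it. At the same limit limma-voom listed 2, 12 and 0 members beside 4.32, 14.6 and 2.53% of all genes. The 12 were 3 higher and 9 lower members. How all genes of that fit split by direction is not given here, so that no direction is read from this. Without the 3 libraries with testis transcripts edgeR again called 0 of 44 members and 0% of all genes. An unadjusted p under 0.05 was then seen for 1, 3 and 1 members and for 3.39, 8.96 and 2.58% of all genes. In both comparisons of tert-/- this was MYL7, at 4.82 against wild type (unadjusted p = 0.0182) and 3.44 against tert+/- (unadjusted p = 0.0498) by edgeR. Of the tert-/- libraries left, tert-/- 2 held 2.19 CPM of MYL7 and tert-/- 3 held 0, so that both values rest on 1 fish. The median SE of the members' log2 fold changes was 0.63, 0.54 and 0.62, and the common dispersion was 0.409 with all libraries and 0.140 without these 3.

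The 16 fast genes had a median log2 fold change of -0.29 in tert-/- against wild type, where the median of all genes tested was -0.03, but it was 0.09 without the 3 libraries with testis transcripts, so that its sign turned. Of these genes 2 were higher and 14 lower with all libraries, beside 9248 higher and 10159 lower of all 19407 genes. Without the 3 libraries 11 were higher and 5 lower, beside 8481 higher and 9487 lower of all 17970 genes. In tert+/- against wild type the fast median was -0.24 with all libraries and -0.04 without the 3, beside 0.00 for all genes in both. MYL11 ENSDARG00000053254 changed from -0.29 to 0.09, tpma from -0.30 to 0.12 and TNNT3 ENSDARG00000068457 from -0.37 to 0.09 when the 3 were left out of the comparison of tert-/- with wild type. Without normalisation factors the median of all genes moved to 0.49, 0.29 and 0.25 in the 3 comparisons, and relative to it the fast median lay at -0.57, -0.42 and -0.21.

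The 8 slow genes tested had medians of -0.01, -0.08 and 0.07 in the 3 comparisons, and 0.29, 0.01 and 0.33 without the 3 libraries. The 4 slow genes of at least 100 CPM had medians of 0.29 in tert-/- and 0.31 in tert+/- against wild type. Without the 3 libraries these were 0.64 and 0.40. The medians of all genes were -0.03 and 0.00 with all libraries and -0.02 and 0.00 without the 3. None of the 4 had an unadjusted p under 0.05 by edgeR in these fits. Myl13 was at 0.49 (SE 0.82, unadjusted p = 0.559) in tert-/- against wild type and myl10 at 0.48 (SE 0.79, unadjusted p = 0.55). Tnnt2d was at 0.55 (SE 0.79, unadjusted p = 0.503), tnni4b.1 at 0.46 (SE 0.76, unadjusted p = 0.555) and tnni4b.2 at 0.52 (SE 0.86, unadjusted p = 0.556). Without tert-/- 2 the estimates of myl10, tnnt2d, tnni4b.1 and tnni4b.2 became -0.62, -0.67, -0.48 and -0.71, so that their direction rested on this 1 fish. TPM4, the fifth of those with the smallest p among the higher members, was at 0.21 (SE 0.26, unadjusted p = 0.44).

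The lower members of smallest p in tert-/- against wild type were TNNI2 ENSDARG00000005841 at -1.22 (SE 0.78, unadjusted p = 0.141), tpm1 at -0.84 (SE 0.64, unadjusted p = 0.214) and MYL2 ENSDARG00000104722 at -0.78 (SE 0.63, unadjusted p = 0.233). TNNI2 ENSDARG00000045592 was at -1.15 (SE 0.94, unadjusted p = 0.241) and tnni4a at -0.56 (SE 0.55, unadjusted p = 0.325). In each of these the highest library of all was wild type 2, 3 or 4, and the tert-/- values overlapped those of the wild types.

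In tert+/- against wild type TNNI2 ENSDARG00000005841 had the smallest p of all members, with -1.76 (SE 0.66, unadjusted p = 0.0196) and an adjusted p of 1.0 by edgeR. Its mean was 4.94 ± 1.68 CPM in tert+/- and 15.6 ± 10.8 CPM in wild types (SD, n = 5 each), and wild types 1 and 5, at 2.10 and 5.67 CPM, did not exceed the highest tert+/- library at 6.75 CPM. It kept this size without the 3 libraries (-1.76, unadjusted p = 0.0167). Other lower members were tpm1 at -0.95 (SE 0.55, unadjusted p = 0.105), tnnc2.1 at -1.07 (SE 0.64, unadjusted p = 0.116) and tnni4a at -0.71 (SE 0.47, unadjusted p = 0.157). MYL7 was at -3.28 (SE 1.86, unadjusted p = 0.101), but it was 1.37 without the 3 libraries and also without wild type 5 alone, which held 62 counts of it against at most 2 in each of the other wild types.

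Among the higher members of tert+/- the smallest p lay in genes classed as smooth muscle or non-muscle by symbol. Of all 19407 genes tested 9749 were higher and 9658 lower, and of the 7 in this class 5 were higher and 2 lower. The lower ones were MYL12A at -0.10 (SE 0.26, unadjusted p = 0.697) and MYL9 ENSDARG00000008030 at -0.09 (SE 0.32, unadjusted p = 0.779) by edgeR. MYL9 ENSDARG00000038123 was at 0.09 (SE 0.28, unadjusted p = 0.74). Myl12.1 was at 0.37 (SE 0.22, unadjusted p = 0.112) with means of 91.7 ± 24.5 CPM in tert+/- and 59.7 ± 8.03 CPM in wild types. Its groups did not overlap in plain CPM, as was so for 168 (0.866%) of all genes tested. With the TMM factors of the fit, 2.03 for tert+/- 1 and 0.802 for wild type 1, they did overlap. The means were then 88.1 ± 13.7 CPM in tert+/- and 68.3 ± 14.0 CPM in wild types. Tpm4a was at 0.47 (SE 0.29, unadjusted p = 0.127), myl6 at 0.25 (SE 0.21, unadjusted p = 0.27), TPM4 at 0.15 (SE 0.23, unadjusted p = 0.516) and tnni4b.1 at 0.60 (SE 0.67, unadjusted p = 0.384). Without the 3 libraries myl12.1 was at 0.38 (unadjusted p = 0.0274) and tpm4a at 0.54 (unadjusted p = 0.033). No other member had groups without overlap in plain CPM in any of the 3 comparisons.

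Between tert-/- and tert+/- the lower members of smallest p were myl12.1 at -0.47 (SE 0.25, unadjusted p = 0.0844), tpm4a at -0.58 (SE 0.34, unadjusted p = 0.108) and myl6 at -0.42 (SE 0.25, unadjusted p = 0.117). TPM4, of the same class by symbol, was at 0.06 (SE 0.26, unadjusted p = 0.835). This comparison shares its tert+/- libraries with the one above. TNNI2 ENSDARG00000013752 was at -0.39 (SE 0.52, unadjusted p = 0.467) and MYL9 ENSDARG00000008030 at -0.18 (SE 0.37, unadjusted p = 0.639), and both turned positive without tert-/- 1. On the higher side TNNT3 ENSDARG00000030270 was at 0.37 (SE 0.49, unadjusted p = 0.46), tnnc2.1 at 0.54 (SE 0.72, unadjusted p = 0.467) and TNNI2 ENSDARG00000005841 at 0.55 (SE 0.73, unadjusted p = 0.469). TNNI2 ENSDARG00000035958 was at 0.32 (SE 0.44, unadjusted p = 0.479) and TNNT1 at 0.26 (SE 0.54, unadjusted p = 0.636). All 5 of these turned negative when 1 of tert-/- 2 and tert-/- 3 was left out.

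**Figure D4:**
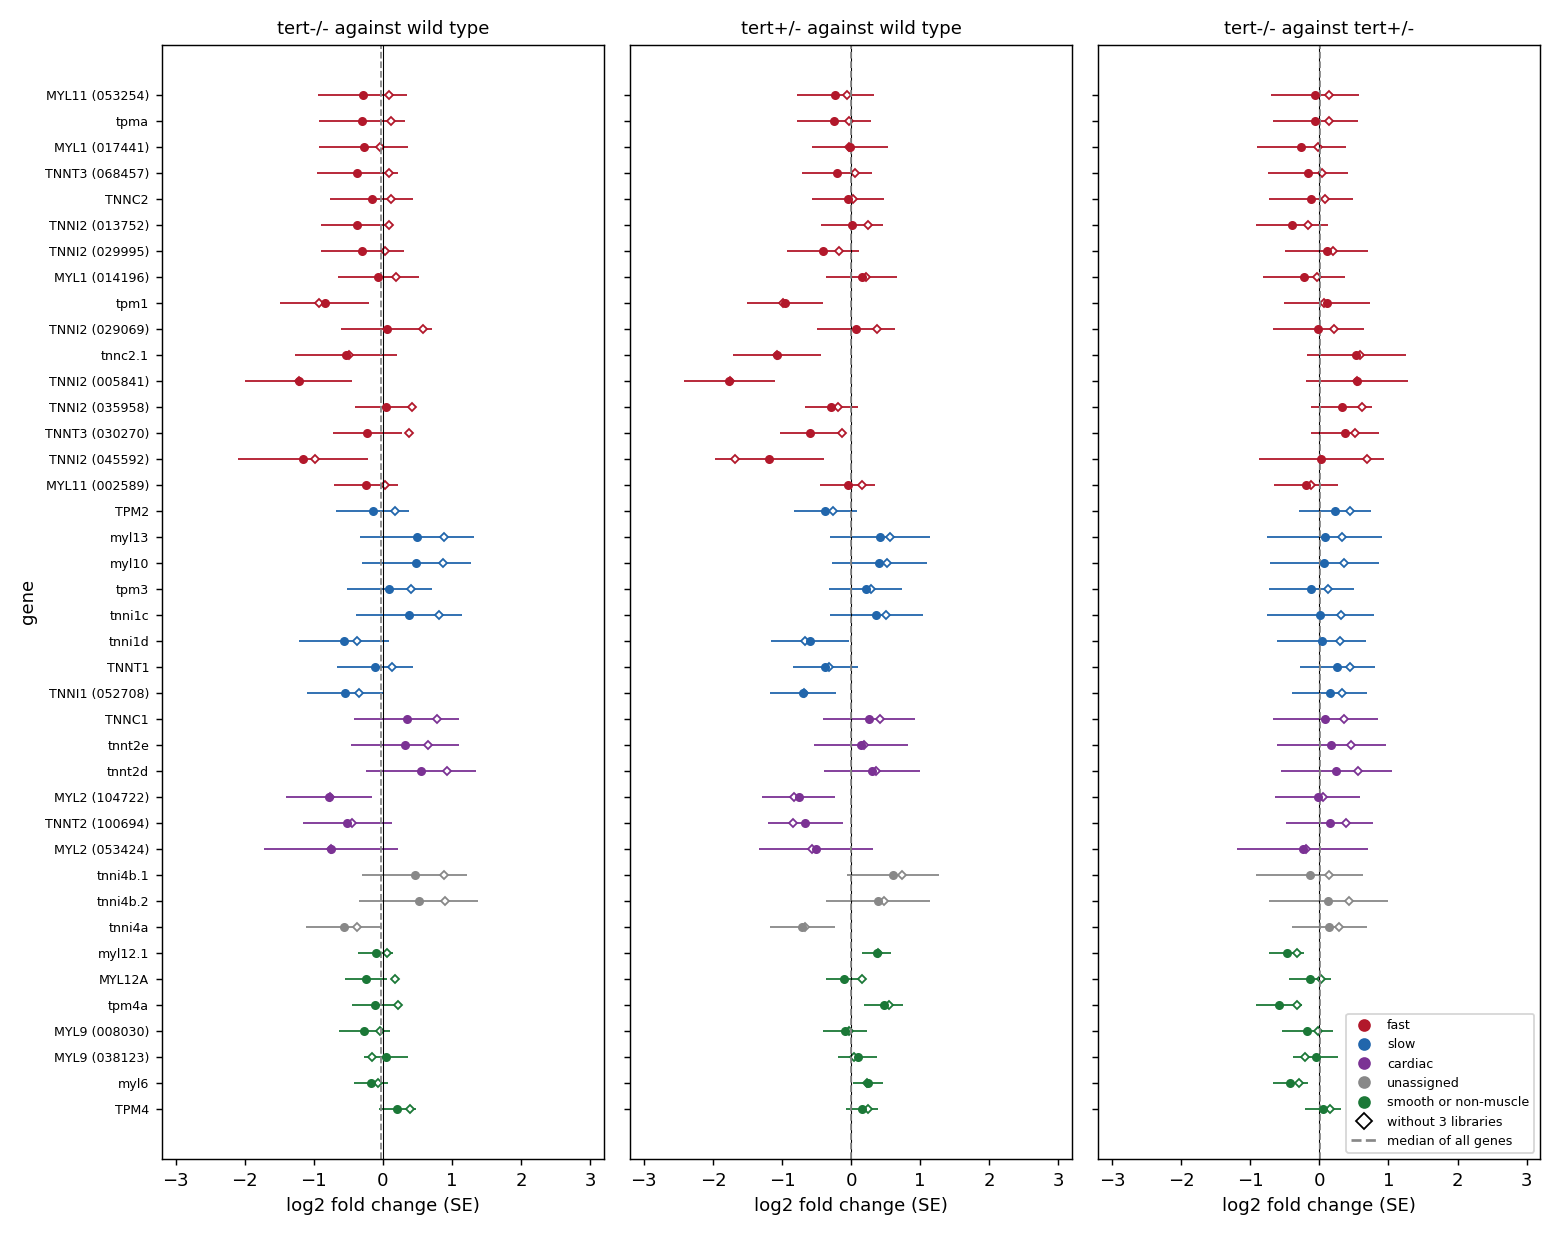
Log2 fold changes of 40 members in the 3 comparisons by edgeR, with filled points and SE bars for all 13 libraries, open diamonds without the 3 libraries with testis transcripts and a dashed line at the median of all genes. No member was called, and the SE of most striated muscle genes is near 0.6. In tert-/- against wild type 2 of the 16 fast genes lie above 0 with all libraries, beside 9248 of all 19407 genes. Without the 3 libraries 11 do, beside 8481 of 17970.

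Other genes of the sarcomere were counted by lists chosen for their roles. None of 16 thin filament, 27 thick filament and 24 Z-disc genes, 9 light chain kinase and phosphatase genes or 22 regulators of fibre type was called in any comparison. In tert-/- against wild type their medians were -0.14, -0.37, -0.34, -0.22 and -0.40 in this order, and without the 3 libraries 0.06, -0.07, -0.06, -0.08 and -0.10. In tert+/- against wild type 25 of the 27 thick filament genes were lower, beside 9658 of all 19407 genes, with a median of -0.51, and obscnb, a giant protein of the M-band and of signalling, was the 1 gene of the list with an unadjusted p under 0.05 (0.0465). Without the 3 libraries the median was -0.38 and 23 were lower, beside 8908 of all 17970 genes. The lowest adjusted p of the list was 0.55 by edgeR. Beside 928 higher and 682 lower genes of the whole fit (8.96%), 5 genes of the list had an unadjusted p under 0.05, all lower. These were myh7bb at -1.19 (unadjusted p = 0.000288), myh7ba at -1.61 (0.0266), MYBPC1 at -0.97 (0.0301), obscna at -0.67 (0.0442) and MYBPC2 at -0.90 (0.0476), while obscnb was at -0.45 (0.0877). TEAD3 is a transcription factor of muscle genes. With all 13 libraries both its identifiers were lower in tert+/- against wild type, with log2 fold changes of -0.68 and -0.97. Their unadjusted p was 0.00992 and 0.0151 and their adjusted p 1.0 by edgeR. Without the 3 libraries 4 of the 22 regulators had an unadjusted p under 0.05, all lower, beside 8.96% of all genes. The lowest adjusted p of the regulators was then 0.55.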

How the data were processed

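RNA was sequenced from muscle of 13 fish. Per the submitters' processing notes, bcl2fastq 1.8.4, STAR 2.4.1d, featureCounts 1.4.6-p4 and the GRCz10 build were used. The annotation, strand setting and handling of reads that match several genes were not stated, so that reads of paralogs with near-identical sequence could be split between them. The authors deposited raw counts per gene, which were used as they are, and RPKM values. Gene lengths were taken from the ratio of the deposited counts to RPKM, in which the library totals had been applied in turn down the table (highest CV of the implied length 0.0563%, over 2227 genes of 200 or more counts per library). Levels per kilobase were then computed with each library's own total.

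All 13 libraries entered 1 quasi-likelihood fit (edgeR 4.0.16, R 4.3.3) with TMM factors and the default expression filter, and p-values were adjusted by Benjamini-Hochberg over all genes tested. The fit was tested on simulated data. DESeq2 1.42.0 and limma-voom (limma 3.58.1) were alternatives, as were other factors and filters and leaving out libraries. Fits without the 3 libraries by DESeq2, and the ratio of slow to fast genes without them, were added after seeing the data. Libraries whose summed testis markers exceeded 10 times the median were set apart. Intervals were computed with scipy 1.17.1. The members and lists were chosen with earlier results of these data known. Values are given for every library for members with a mean of at least 100 CPM, for the most abundant fast and slow gene of each family, and for up to 5 members per direction of smallest p and at least 1 CPM in each comparison. The labels give separate samples but not how the fish relate, and p-values measure the spread between these samples. Sequences and coordinates were not used here.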

Additional observations from a re-analysis of the deposited data

Results flagged for a closer look

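Within a genotype of 5 libraries, 11 values stood apart from the other 4 by more than Dixon's 95% limit, out of 76 sets of values examined. Chance alone marks about 1 set in 20. Wild type 5 was such a library for 5 genes. It held the highest TNNT3 ENSDARG00000068457 of the wild types with 22204 CPM, against 17253 CPM in the next. It held the highest TNNT3 ENSDARG00000030270 with 3.31 CPM (next 1.54 CPM), the highest TPM4 with 7.18 CPM (next 3.52 CPM) and the highest MYL7 with 5.86 CPM (next 0.0573 CPM). It also held the lowest MYL1 ENSDARG00000014196 with 1662 CPM, where the next wild type had 3501 CPM.

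Tert+/- 1 was such a library for 4 genes. Its TNNT3 ENSDARG00000068457 was the lowest of its genotype with 11027 CPM (next 16433 CPM). Its TPM4 of 13.1 CPM (next 4.31 CPM), its myl12.1 of 134 CPM (next 87.4 CPM) and its TNNI2 ENSDARG00000045592 of 3.22 CPM (next 1.15 CPM) were the highest. Wild type 5 and tert+/- 1 are both libraries with testis transcripts, and the part of other tissue in these values was not tested.

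The last 2 values were the highest of the wild types. These were 86.6 CPM of tnnt2d in wild type 2 (next 31.6 CPM) and 5.27 CPM of TNNI2 ENSDARG00000045592 in wild type 3 (next 1.70 CPM).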

How the results depend on the processing

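No member was called in any comparison under any alternative that was run, leaving out 1 library at a time included. Over all genes, where edgeR called 0, DESeq2 called 1 gene in tert-/- against wild type and 1 in tert-/- against tert+/-. Without the 3 libraries with testis transcripts, an alternative added after seeing the data, it called 30 genes in tert+/- against wild type, none of them a member. Leaving out 1 library gave 0 genes called by edgeR throughout.

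For the 10 members named in each comparison the direction held in 126, 129 and 123 of 130 values with 1 library left out. In tert-/- against wild type these estimates ran from -0.67 to 1.18 for tnnt2d, from -0.62 to 1.02 for myl10, from -0.48 to 0.995 for tnni4b.1 and from -0.71 to 1.05 for tnni4b.2, negative without tert-/- 2. In tert+/- against wild type MYL7 ran from -5.19 to 1.37, the latter without wild type 5. In tert-/- against tert+/- the range was -0.20 to 0.74 for TNNT3 ENSDARG00000030270, -0.073 to 0.85 for tnnc2.1, -0.18 to 0.83 for TNNI2 ENSDARG00000005841, -0.016 to 0.77 for TNNI2 ENSDARG00000035958 and -0.54 to 0.63 for TNNT1. There it was -0.90 to 0.038 for TNNI2 ENSDARG00000013752 and -0.43 to 0.16 for MYL9 ENSDARG00000008030. Of the other alternatives MYL7 alone changed sign among the named members, in tert+/- against wild type, to 0.031 with limma-voom and 1.37 without the 3 libraries.

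Slow troponin T averaged 0.303% of the fast level over 13 libraries, 1.53% with the cardiac genes counted as slow and 0.164% from plain counts. Slow tropomyosin averaged 0.722% per kilobase and 2.36% from plain counts, which do not allow for the length of its slow genes. TMM factors moved the mean of a genotype by less than 1 SD for 30 of 33 members in wild types, 33 of 33 in tert+/- and 32 of 33 in tert-/-. The spread changed more, since the factor was 2.03 for tert+/- 1 and 2.30 for tert-/- 1, against 0.771 to 1.07 for the others. For MYL11 ENSDARG00000053254 in tert-/- the factors took the mean from 47974 to 47615 CPM and the SD from 10100 to 29763 CPM. No paired analysis was possible because the labels carry no replicate numbers and those used here follow the order of the records. Genes with few counts and an SE near 0.6 limit what could be called.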
